A study of Mus musculus with 3 samples.

Results

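Hair shafts are built from hair keratins, which form the filaments, and from keratin-associated proteins (KAPs), which fill the space between the filaments and are cross-linked to them through disulfide bonds. The Krtap genes that encode the KAPs are named by family number and are grouped by the makeup of the protein into high-sulfur, ultrahigh-sulfur and high glycine-tyrosine KAPs. They are known as late genes of the hair programme, switched on above the matrix of the growing follicle after the earliest hair keratins. Alopecia areata (AA) is an autoimmune hair loss in which immune cells attack growing follicles, so these genes report on the cells that build the shaft in AA skin.

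All genes with a symbol that starts with Krtap were taken, which gave 57 of the 32285 genes counted. They were measured by droplet-based scRNA-seq of dorsal skin from 25-week-old female C3H/HeN mice in 3 libraries, each from the pooled skin of 7 to 8 mice. Neg is the negative (vehicle) control, from unaffected mice. AA is the AA model, in which recipients received cultured cells from the skin-draining lymph nodes of affected mice, and AA+Ab is the same model given a CXCL12-neutralizing antibody, CXCL12 being a chemokine that attracts immune cells. With 1 library per group, no test between groups was possible, and differences between mice, captures and treatments cannot be told apart. Intervals are exact 95% intervals and cover counting error only. The UMIs of these genes were concentrated in few cells, and the intervals do not hold the error of drawing other cells.

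After cells with over 10% mitochondrial unique molecular identifiers (UMIs) or under 200 genes were left out, 6582 Neg, 10433 AA and 9832 AA+Ab cells remained, with 119193310, 135609481 and 139663314 UMIs and medians of 13694.5, 11177 and 11371 UMIs per cell. Levels are given as CPM, the UMIs of a gene per 1000000 UMIs of the same cells. In these 3′ libraries each captured molecule counts once, whatever the length of the gene. Between 14 and 23 cell barcodes were shared by each pair of libraries, and leaving them out changed the summed Krtap level to 19.6 CPM in Neg, 16.9 in AA and 42.2 in AA+Ab.

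The 57 genes lie in 5 groups in the mouse genome (GRCm38, the build of the files, with GENCODE M21 genes). The group on chromosome 11, from 99550130 to 99993994, holds 23 of them, and the group on chromosome 16, from 88610705 to 89571183, holds 24. The remaining members lie on chromosomes 7 (5 genes), 10 (3 genes) and 1 (2 genes). In 52 of the 57, every annotated transcript is a lone exon, and all 57 are annotated as protein-coding. Krtap8-1 (89487379 to 89487952), Krtap7-1 (89507703 to 89508323) and Krtap11-1 (89570176 to 89571183) are adjacent among the members on the minus strand of chromosome 16. Krtap15 (88820215 to 88829844, plus strand) and Krtap14 (88818667 to 88826145, minus strand) overlap on opposite strands by 5931 bases.

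The sequences just upstream of the start sites are shown because most of the members share a core promoter element. As described below, some members were found in the same cells and others mostly in different ones. RefSeq promoters of the same build were matched by symbol for 51 members. Krtap7-1 was not among them. The letters TATAA, the core of a TATA box, began between 20 and 40 bases before the start on the gene's own strand in 36 of the 51 (70.6%), against 3.52% of all 32851 promoters. Below are the 100 bases before the RefSeq start of 6 members, 5′ to 3′, with TATAA in capitals.
Krtap8-1, chr16:89487953-89488052 on the minus strand: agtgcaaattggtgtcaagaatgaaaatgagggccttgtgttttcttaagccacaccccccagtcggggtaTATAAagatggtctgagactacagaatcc
Krtap11-1, chr16:89571184-89571283 on the minus strand: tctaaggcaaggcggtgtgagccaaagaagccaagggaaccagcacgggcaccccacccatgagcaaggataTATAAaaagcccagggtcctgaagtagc
Krtap14, chr16:88826146-88826245 on the minus strand: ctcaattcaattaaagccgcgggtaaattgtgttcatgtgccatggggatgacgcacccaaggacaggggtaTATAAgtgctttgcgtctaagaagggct
Krtap3-3, chr11:99550864-99550963 on the minus strand: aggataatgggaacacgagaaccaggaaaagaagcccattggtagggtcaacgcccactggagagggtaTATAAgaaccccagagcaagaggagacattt
Krtap3-2, chr11:99556854-99556953 on the minus strand: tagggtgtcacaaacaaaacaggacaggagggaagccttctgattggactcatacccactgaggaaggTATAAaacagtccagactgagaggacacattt
Krtap17-1, chr11:99993995-99994094 on the minus strand: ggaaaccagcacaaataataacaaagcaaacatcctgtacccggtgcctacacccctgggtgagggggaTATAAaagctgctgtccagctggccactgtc
In these 6 genes the TATAA began 28 to 32 bases before the start. It began 37 bases before the start in Krtap3-1, 44 in Krtap15, and 52 and 82 in Krtap13-1, which are not printed. The narrow range thus holds for the printed genes and not for all members with many UMIs. The letters CTTTGAA, a form of the site of the Wnt effector LEF1, were searched on both strands of the 250 bases before the start and were present in 7 of the 51 members (13.7%) and in 4.46% of all promoters. Krtap11-1, Krtap14 and Krtap15 were the ones that held it among the genes with the most UMIs. The letters TCGTAAA, part of motifs bound by HOXC13, were present in 1 of the 51 members, Krtap11-1, and in 0.48% of all promoters. A match describes these letters in this window and not a bound site.

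Few members carried the signal. A UMI of 24 members was found in Neg, of 28 in AA and of 33 in AA+Ab, and 18 members had no UMI in any library. A count of 0 was read as a level of up to 3 counts, which is 0.0252 CPM in Neg, 0.0221 in AA and 0.0215 in AA+Ab. The 10 members with the highest mean CPM were Krtap8-1, Krtap15, Krtap7-1, Krtap3-3, Krtap17-1, Krtap11-1, Krtap13-1, Krtap3-2, Krtap14 and Krtap3-1. They held 98.9% of the Krtap UMIs in Neg, 98.2% in AA and 98.5% in AA+Ab. Krtap8-1 alone held 50.9%, 42.4% and 67.3%.

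By class, the high glycine-tyrosine KAPs (15 genes, among them Krtap8-1 and Krtap7-1) had 11.5 CPM in Neg, 7.66 in AA and 32.0 in AA+Ab. The high-sulfur KAPs (12 genes, among them Krtap15, Krtap3-3, Krtap11-1, Krtap13-1 and Krtap14) had 7.58 CPM in Neg, 7.58 in AA and 9.62 in AA+Ab. The difference between AA+Ab and the other libraries was thus mostly in the high glycine-tyrosine class. Among the ultrahigh-sulfur KAPs, which are typical of the hair cuticle and of late cortex, families 4, 5 and 9 were nearly absent. Their 16 genes together had 1 UMI in Neg, 5 in AA and 16 in AA+Ab, and the 5 members of family 5 had no UMI in any library. The 14 genes of the other families, among which Krtap17-1 was placed, had 0.411, 1.53 and 0.709 CPM. Most of it was from Krtap17-1, with 36, 189 and 76 UMIs. Were Krtap17-1 counted as ultrahigh-sulfur, that class would not be nearly absent and would be highest in AA. On chromosome 16 lay 85.9% of the Krtap UMIs in Neg, 81.1% in AA and 95% in AA+Ab, and the group on chromosome 7 had none.

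The summed Krtap level was 19.5 CPM (interval 18.7 to 20.3, 2322 UMIs) in Neg, 16.8 CPM (16.1 to 17.5, 2279 UMIs) in AA and 42.4 CPM (41.3 to 43.5, 5924 UMIs) in AA+Ab. AA+Ab was thus high, and the 2 other libraries lay near each other. The ratio of AA+Ab to AA was 2.52 (2.40 to 2.65), and that of AA+Ab to Neg 2.18 (2.07 to 2.29). The ratio of AA to Neg was 0.863 (0.814 to 0.914). This last difference did not keep its direction. Without Krtap8-1 the level was 9.56 CPM in Neg, 9.67 in AA and 13.9 in AA+Ab, and the ratio of AA+Ab was then 1.44 to AA (1.34 to 1.54) and 1.45 to Neg (1.35 to 1.57). Most of the AA+Ab difference thus lay in Krtap8-1. With every cell thinned to 1000 UMIs the summed level was 11.3 in Neg and 13.1 in AA.

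These UMIs sat in few cells. The 1% of cells with the most Krtap UMIs held 67.7% of them in Neg, 67.6% in AA and 66.1% in AA+Ab, and 91.2 to 94.6% of cells had none. Cells with 3 or more Krtap UMIs numbered 159 in Neg (2.42%, 2.06 to 2.82), 188 in AA (1.80%, 1.56 to 2.08) and 321 in AA+Ab (3.26%, 2.92 to 3.64). Within them the Krtap level was 373 CPM in Neg, 416 in AA and 672 in AA+Ab, a level that describes cells chosen for their Krtap UMIs. These cells were deeper than the rest, with medians of 26237, 19985 and 22021 UMIs against 13501, 11095 and 11180. After thinning to 1000 UMIs, which left out 290, 86 and 158 shallower cells, the share with 3 or more was 0.0954% in Neg, 0.0773% in AA and 0.258% in AA+Ab. The cells with the most Krtap UMIs had 237 in Neg, 101 in AA and 282 in AA+Ab.

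Free RNA in the droplets was read from cells with UMIs of at least 3 different T cell receptor complex genes, which should lack KAPs. Their Krtap level was 7.56 CPM in Neg (270 cells, median 5926.5 UMIs), 1.73 in AA (430 cells, median 4581.5) and 14 in AA+Ab (433 cells, median 4655), and 0.741%, 0% (0 of 430 cells, upper bound of the exact interval 0.854%) and 1.15% of them had 3 or more Krtap UMIs. The shares over all kept cells were higher, a comparison that depth enters, since the T cells were shallower. With the T cell level taken off, the sum was 11.9 CPM in Neg, 15.1 in AA and 28.4 in AA+Ab. AA+Ab stayed the highest, and the order of Neg and AA turned. It did not turn with the level of all cells with 3 or more T cell receptor complex UMIs (5.14, 3.84 and 8.66 CPM), which left 14.3, 13 and 33.8 CPM. How much of the Krtap signal outside the follicle came from free RNA was not tested.

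**Figure D1:**
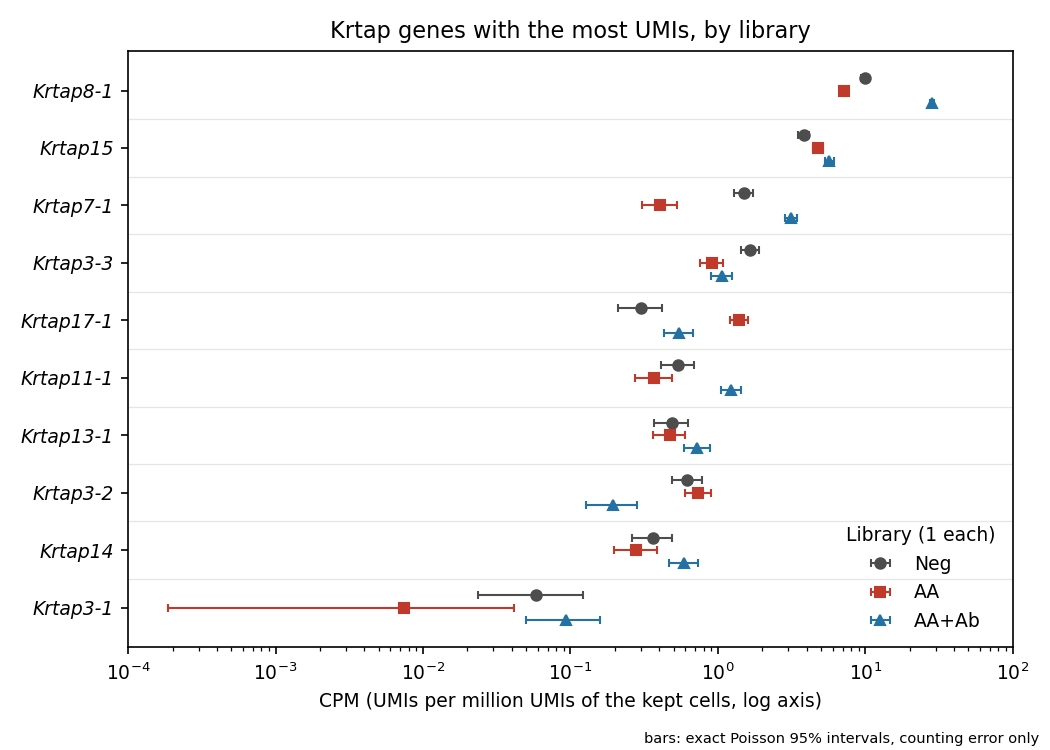
CPM (log axis) of the 10 Krtap genes with the highest mean level in the Neg, AA and AA+Ab libraries; points are 1 library each and bars are exact Poisson 95% intervals. Krtap8-1 reached 28.5 CPM in AA+Ab, Krtap17-1 was highest in AA at 1.39 CPM, and Krtap3-2 was lowest in AA+Ab at 0.193 CPM.

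The members did not move as a block between libraries. A member was called when its CPM differed at least 2-fold and it had at least 20 UMIs over the libraries compared. In AA over Neg, 1 of 9 members with enough UMIs was higher, where 3.17% of all 19482 genes were, and 1 was lower, where 3.71% were. In AA+Ab over AA, 4 of 9 were higher (background 2.58%) and 2 were lower (background 4.09%). In AA+Ab over Neg, 3 of 10 were higher (background 2.03%) and 1 was lower (background 3.64%). The median log2 ratio of these members was -0.36, 0.62 and 0.68 in the 3 comparisons, against -0.06, 0.01 and -0.06 over all genes. The comparisons share libraries and are not independent of each other.

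Among the high glycine-tyrosine KAPs, Krtap8-1 had 1183 UMIs in 169 cells of Neg (9.93 CPM), 967 in 203 cells of AA (7.13 CPM) and 3984 in 534 cells of AA+Ab (28.5 CPM). AA+Ab was 4.0-fold higher than AA (3.73 to 4.30) and 2.87-fold higher than Neg (2.69 to 3.07). The T cells with 3 receptor genes had 4.36, 0.346 and 7.51 CPM of it. Krtap7-1 had 179 UMIs in 30 cells of Neg (1.5 CPM), 55 in 40 cells of AA (0.406 CPM) and 436 in 89 cells of AA+Ab (3.12 CPM). AA+Ab was 7.70-fold higher than AA (5.80 to 10.4). In Neg, 111 of the 179 Krtap7-1 UMIs were in 1 cell. With the highest cell of each library left out, the ratio of AA to Neg went from 0.270 to 0.646 and was no longer past 2-fold, and AA+Ab stayed 6.29-fold above AA. In the same way the ratio of AA+Ab to Neg went from 2.08 to 4.07 (3.12 to 5.36).

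Krtap15, a high-sulfur KAP, was the steadiest of the abundant members, with 454 UMIs in Neg (3.81 CPM), 650 in AA (4.79 CPM) and 795 in AA+Ab (5.69 CPM). AA was 1.26-fold above Neg (1.11 to 1.42). AA+Ab was 1.49-fold above Neg, 1.55-fold without doublets and 1.63-fold with at most 5% mitochondrial UMIs. Its overlapping neighbour Krtap14 had 43, 38 and 82 UMIs (0.361, 0.280 and 0.587 CPM). Krtap14 was 2.10-fold higher in AA+Ab than in AA, and 1.88-fold without the highest cell of each library. Krtap13-1, a further high-sulfur KAP of the chromosome 16 group, had 0.487 CPM in Neg, 0.472 in AA and 0.723 in AA+Ab and was not called. Krtap11-1, a high-sulfur KAP, had 64 UMIs in Neg (0.537 CPM), 50 in AA (0.369 CPM) and 172 in AA+Ab (1.23 CPM), and AA+Ab was 3.34-fold above AA (2.43 to 4.67). With at most 5% mitochondrial UMIs, the ratio of AA+Ab to Neg fell under 2-fold for Krtap11-1 (1.77) and for Krtap7-1 (1.76), and Krtap14 was 1.82-fold higher in AA+Ab than in AA.

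The members on chromosome 11 went other ways. Krtap17-1 had 36 UMIs in 21 cells of Neg (0.302 CPM), 189 in 72 cells of AA (1.39 CPM) and 76 in 37 cells of AA+Ab (0.544 CPM). AA was high, at 4.61 times Neg (3.22 to 6.79), and AA+Ab was 0.390 times AA (0.295 to 0.512). Krtap3-2 had 74 UMIs in 35 cells of Neg (0.621 CPM), 100 in 49 cells of AA (0.737 CPM) and 27 in 20 cells of AA+Ab (0.193 CPM). AA+Ab was low, at 0.262 times AA (0.165 to 0.404) and 0.311 times Neg (0.193 to 0.490). Krtap3-3 was high in Neg, with 198 UMIs (1.66 CPM) against 124 in AA (0.914 CPM) and 149 in AA+Ab (1.07 CPM). The ratio of AA to Neg was 0.550 (0.436 to 0.692), short of the 2-fold rule, and 0.479 without the highest cell of each library. Krtap3-1 had 7, 1 and 13 UMIs. The 3 family 3 members share sequence, with 37.7% of the 90-base windows of Krtap3-3, 25.9% of Krtap3-2 and 1.75% of Krtap3-1 also present in transcripts of another of them, so reads could be lost or assigned to the wrong gene. Over all members, 28 of 57 had such a window with another gene, while Krtap8-1, Krtap7-1, Krtap11-1, Krtap13-1, Krtap14 and Krtap17-1 had none and Krtap15 shared windows with the long noncoding RNA 4930553J12Rik.

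**Figure D2:**
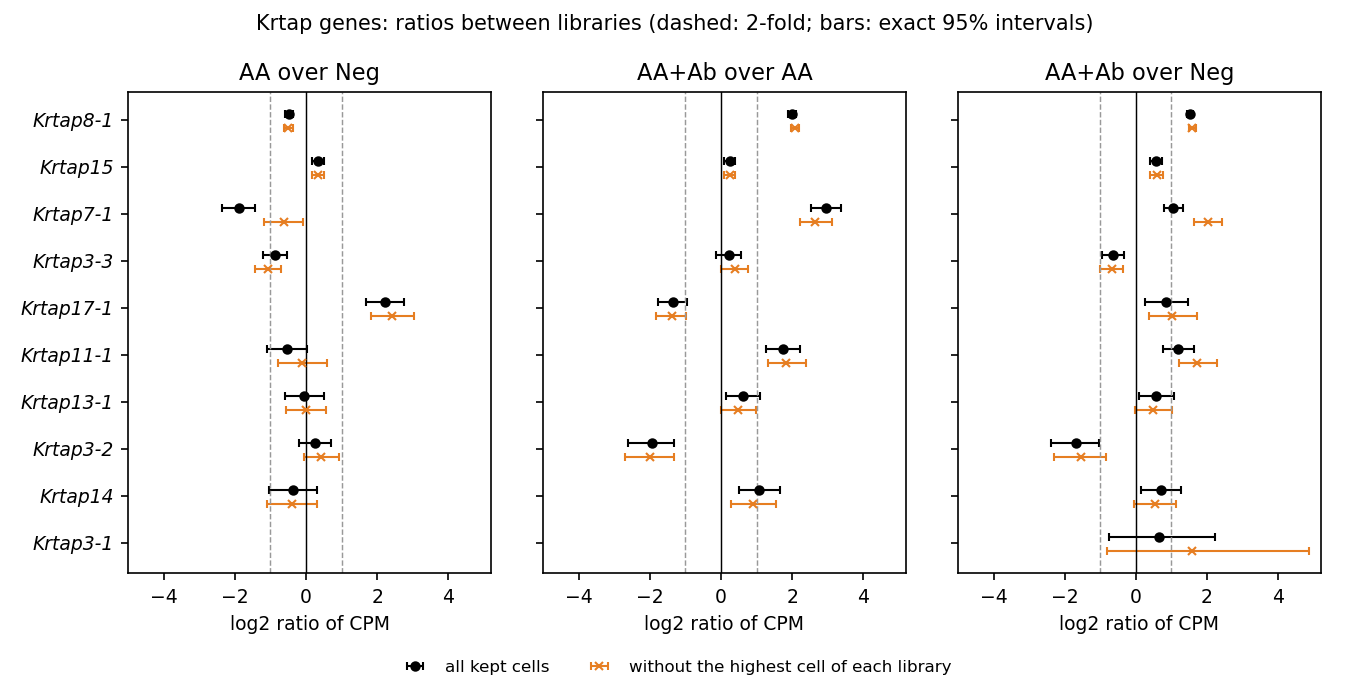
Log2 ratios of CPM for each pair of libraries in the 10 Krtap genes, with all kept cells (black circles) and without the cell of each library with the most UMIs of that gene (orange crosses); bars are exact 95% intervals, dashed lines mark 2-fold, and a gene with under 20 UMIs over the pair is not drawn. Krtap7-1 in AA over Neg moved from 0.270-fold to 0.646-fold, while Krtap8-1 and Krtap17-1 kept their calls.

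The remaining 47 members had 26 UMIs in Neg, 41 in AA and 89 in AA+Ab. None of them reached 20 UMIs over all libraries. The highest of each family were Krtap19-4 (4, 8 and 7 UMIs), Krtap22-2 (1, 4 and 12), Krtap16-3 (4, 2 and 7), Krtap9-3 (0, 3 and 10), Krtap10-10 (2, 1 and 7), Krtap12-1 (2, 5 and 0), Krtap1-5 (4, 1 and 1), Krtap24-1 (2, 3 and 0), Krtap6-5 (0, 0 and 5), Krtap28-13 (1, 3 and 0), Krtap26-1 (0, 2 and 2), Krtap4-1 (1, 0 and 2) and Krtap2-4 (0, 0 and 1). Krtap20-2, Krtap21-1, Krtap27-1, Krtap29-1 and Krtap31-1 stand for families with no UMI. Krtap12-1 and Krtap10-10 lie within the gene Tspear on its own strand, which makes their counts uncertain. Most differences between libraries were within counting error for these members. Krtap9-3 (0 UMIs in Neg, interval 0 to 0.0309 CPM, and 0.0343 to 0.132 CPM in AA+Ab) and Krtap22-2 (AA+Ab at 10.2 times Neg, 1.52 to 438) went past it, but 4 of the 10 AA+Ab UMIs of the first and 6 of the 12 of the second were in 1 cell. In AA, 15 of the 41 UMIs came from 1 cell with 37 Krtap UMIs of 15 members. In AA+Ab, 20 of the 89 came from 1 cell with 57 Krtap UMIs of 15 members, among them 6 of Krtap22-2, 4 of Krtap19-5 and 3 of Krtap9-3. Cells with 5 or more different members numbered 4 in Neg, 3 in AA and 6 in AA+Ab. The coding genes that lie between members but carry other names added 30, 17 and 21 UMIs on chromosome 11, most of them from Gm11938 and Gm11562.

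Most cells were led by Krtap8-1 or Krtap15. Among cells with 3 or more Krtap UMIs, Krtap8-1 was the member with the most UMIs in 72 of 159 in Neg (45.3%), 67 of 188 in AA (35.6%) and 214 of 321 in AA+Ab (66.7%). Krtap15 led 42 (26.4%), 62 (33.0%) and 61 (19%). Krtap17-1 led 3 cells in Neg, 24 in AA and 11 in AA+Ab, and Krtap3-2 led 9, 12 and 3. In 39.0%, 52.1% and 33.6% of these cells the UMIs were all of 1 member, and 19.5%, 16% and 25.9% held 3 or more members.

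**Figure D3:**
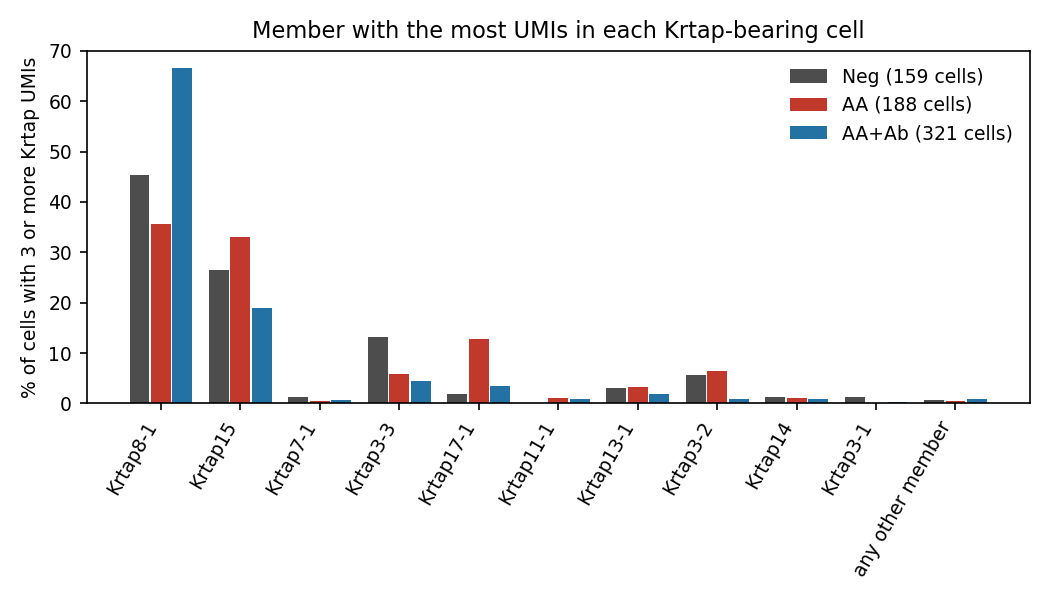
Percent of the cells with 3 or more Krtap UMIs (159 in Neg, 188 in AA, 321 in AA+Ab) in which each gene had the most UMIs of all Krtap genes. Krtap8-1 led 45.3%, 35.6% and 66.7% of them, and Krtap17-1 led 24 cells in AA against 3 in Neg.

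Some members were found in the same cells. Of the cells with Krtap14, 61.8% in Neg, 70.0% in AA and 55.3% in AA+Ab also had Krtap15, while 1.85%, 1.42% and 2.29% of all cells had it. Whether opposite-strand reads of these overlapping genes were told apart is not given in the sources used here. Of the cells with Krtap7-1, 66.7%, 32.5% and 57.3% also had Krtap8-1, against 2.57%, 1.95% and 5.43% of all cells. Krtap8-1 was found in 1 of 21, 7 of 72 and 1 of 37 cells with Krtap17-1 (4.76%, 9.72% and 2.70%), and in 2 of 35, 0 of 49 and 2 of 20 cells with Krtap3-2 (5.71%, 0% and 10%). In AA the share among cells with Krtap17-1 lay above the 1.95% of all cells. The other shares rest on 0 to 2 cells, too few to place them above or below those of all cells. These shares describe sparse counts in cells of different depth.

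The label of hair shaft genes was checked against the hair keratins. Of the 13 hair keratins listed, 12 were in the files, and Krt85 was not analysed here. Krt35, a keratin of the hair matrix and early cortex, had 127, 76.6 and 110 CPM and was 87.5%, 83.5% and 83.5% of the hair keratin UMIs. The keratins of later cortex were scarce, with 1.40, 0.170 and 2.03 CPM of Krt31, 0.705, 0.553 and 2.33 CPM of Krt33a, and at most 4 UMIs of Krt33b or Krt34 in a library. Krt82, a cuticle keratin, had 15, 4 and 8 UMIs. By the later cortex keratins and Krt82, differentiated shaft was thus thinly covered in all 3 libraries. The other cuticle keratin listed, Krt32, was not scarce, with 1289, 1451 and 1444 UMIs in 942, 1103 and 1092 cells. In AA+Ab over AA, 4 of 8 hair keratins with enough UMIs were at least 2-fold higher, which were Krt31, Krt33a, Krt81 and Krt83 (background 2.58%), and in AA over Neg 1 of 8, Krt31, was lower (background 3.71%). Of 9 tested between AA+Ab and Neg, Krt33a was higher (background 2.03%) and Krt82 lower (background 3.64%) in AA+Ab. In Neg 140 of the 167 Krt31 UMIs, and in AA+Ab 125 of 284, were in 1 cell. Without the highest cell of each library Krt31 had 0.227, 0.155 and 1.14 CPM, and AA was 0.683 times Neg, no longer past 2-fold. Bulk sums cannot tell fewer cells of a type from less RNA per cell.

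Per 100 hair keratin UMIs there were 13.5 Krtap UMIs in Neg (12.9 to 14), 18.3 in AA (17.5 to 19.2) and 32.3 in AA+Ab (31.4 to 33.3). The ratio was thus lowest in Neg. In cells with 5 or more hair keratin UMIs it was 4.52, 2.78 and 11, so that AA was lowest there. In Neg, 237 of the 685 Krtap UMIs of these cells were in 1 cell. That cell thus raised the Neg value there, and a value without it is not given. Of the Krtap UMIs, 45.9% in Neg, 62.7% in AA and 46.2% in AA+Ab were in cells without a hair keratin UMI. The level rose with hair keratin content in every library. In cells without hair keratin UMIs it was 14.1, 13.9 and 28.2 CPM, and in cells with 0.1 to 1% it was 102, 57.7 and 114 CPM. In cells with 1 to 5% it was 538 CPM in Neg (7 cells), 300.1 in AA (9 cells) and 3133 in AA+Ab (13 cells). These groups rest on single cells. The Neg cell with 237 Krtap UMIs had 0.961% hair keratin UMIs, just under the limit of 1%. Without the cell with the most Krtap UMIs in each group and library, the cells with 0.1 to 1% had 34.2 CPM in Neg, 48.2 in AA and 74.2 in AA+Ab, and those with 1 to 5% had 327, 66.9 and 2321 CPM. With the lower limit of the last group at 0.5%, which places that Neg cell in it, the levels were 448, 150 and 1298 CPM from 29, 34 and 42 cells. AA+Ab was thus highest each time, and the order of Neg and AA in the cells with 0.1 to 1% turned, with overlapping intervals. These alternatives were chosen after seeing the data.

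**Figure D4:**
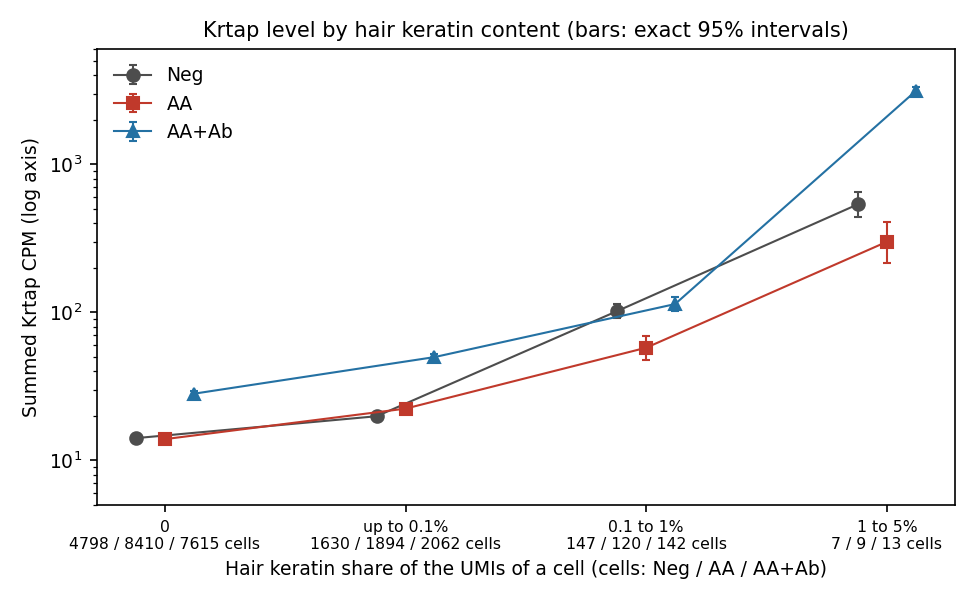
Summed Krtap CPM (log axis) in cells grouped by the share of their UMIs from hair keratins, for the Neg, AA and AA+Ab libraries, with exact Poisson 95% intervals and cell numbers under each group. The cells with 1 to 5% hair keratin UMIs had 538, 300.1 and 3133 CPM, from 7, 9 and 13 cells, and 327, 66.9 and 2321 CPM without the cell with the most Krtap UMIs in each; in cells with 0.1 to 1%, 1 cell held 237 of the 354 Krtap UMIs of Neg.

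To find which follicle layers held each member, cells were picked by the share of their UMIs from marker genes (0.1%, or 1% for basal and suprabasal epidermis, with at least 3 UMIs). These picks are ranges of a score and overlap each other, and are not cell types. Among them, cells with upper follicle markers (591 in Neg, 981 in AA and 1056 in AA+Ab) held the largest share of Krtap UMIs. The share was 26.1%, 37.0% and 33.8%, against 23.3%, 24.4% and 23.4% in the inner root sheath pick. Their Krtap level of 43.9, 56.3 and 109 CPM was lower than in cells with Krt35 (128, 75.8 and 385 CPM). How many upper follicle cells also fell in other picks is not given. Cells between 0.5 and 2 times the limit numbered 826, 828 and 1168 for the inner root sheath, 805, 1501 and 1295 for the outer bulge, 416, 597 and 568 for suprabasal epidermis, and 359, 409 and 583 for fibroblast markers. Cells with cortex keratins (Krt31, Krt33a, Krt86 and others) numbered 2 in Neg, 2 in AA and 6 in AA+Ab, with 3, 5 and 4 cells between 0.5 and 2 times the limit, and held 237, 3 and 913 Krtap UMIs. In AA+Ab their levels were 3153 CPM of Krtap8-1, 1856 of Krtap7-1 and 628 of Krtap11-1. In Neg these 237 UMIs were of 1 cell, with 99 UMIs of Krtap8-1, 111 of Krtap7-1 and 27 of Krtap11-1. The members that neighbour each other on chromosome 16 were thus found together in the cells with cortex keratins, and in AA these cells had 3 UMIs of Krtap11-1 and none of the others.

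Among cells with Krt35, the early cortex and matrix pick (114 in Neg, 121 in AA and 138 in AA+Ab, with 80, 93 and 111 cells near the limit), Krtap8-1 had 48.1, 34.4 and 194 CPM. AA+Ab was 5.65-fold above AA (4.43 to 7.31) and 4.04-fold above Neg (3.41 to 4.82). Krtap7-1 had 40.5, 5.18 and 105 CPM in them, with 144, 11 and 335 UMIs from 4, 3 and 15 cells. Krtap11-1 had 11, 10.4 and 36.8 CPM, and AA+Ab was 3.55-fold above AA (2.24 to 5.88). These levels rest on few cells, and the cortex pick shares 1, 2 and 6 cells with this one. Without those shared cells Krtap8-1 had 20.5, 34.6 and 51.4 CPM, Krtap7-1 had 9.39, 5.21 and 20.8 CPM, and Krtap11-1 had 3.42, 9.0 and 8.24 CPM. AA+Ab then stayed highest for Krtap8-1 and Krtap7-1 by less and was not highest for Krtap11-1, whose intervals in AA and AA+Ab overlapped. Neg was lower than AA for Krtap8-1, and for Krtap11-1 with overlapping intervals. Without only the 1 cell with the most UMIs of the gene, AA+Ab had 141 CPM of Krtap8-1 against 25.7 in AA, 70.6 of Krtap7-1 against 2.85, and 28.2 of Krtap11-1 against 5.23. These alternatives were added after seeing the data as well.

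Krtap15 was found at its highest level in cells with Krt75 or Krt6a, keratins of the companion layer and medulla, except in AA+Ab, where 1 of the 6 cells with cortex keratins held 42 of its UMIs. These companion and medulla cells (24, 67 and 72, with 72, 139 and 164 near the limit) had 139 CPM in Neg, 84.8 in AA and 53.7 in AA+Ab. AA was 0.610 times Neg (0.456 to 0.818), a direction that turned when the limit was set at 0.5 times, and the pick in AA held more basal keratin, with a median of 4785 CPM of Krt5, Krt14 and Col17a1 against 432 in Neg and 453 in AA+Ab. The cells with 3 or more Krtap15 UMIs (52, 61 and 99) had 35.3, 39.2 and 22 times the Krt75 of other cells. Krt6a, the other marker of the companion and medulla pick, went the other way, at 0.603, 0.0976 and 0.167 times. Tchh was at 33.3, 77.7 and 21.4 times. Krt71, a keratin typical of the inner root sheath, was at 0.0238, 0.0195 and 0.0660 times, and Krt25 at 0.207, 0.490 and 0.761 times. Krt27 was 2.09, 3.52 and 3.52 times as high in them. The inner root sheath markers include Tchh, which the medulla also expresses. In cells picked by these markers (619, 620 and 785), Krtap15 had 9.97, 24.9 and 15 CPM, and AA was 2.49-fold above Neg (2.08 to 3.01). In the same inner root sheath cells Krtap8-1 had 13.1, 7.45 and 50.4 CPM. Within the same cells Krtap15 was thus highest in AA and Krtap8-1 in AA+Ab. The order of Neg and AA for Krtap8-1 turned when the limit was set at 0.5 or at 2 times.

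Krtap3-3 had 4.67, 3.16 and 2.66 CPM in the inner root sheath cells and 10.7, 7.54 and 8.49 CPM in the Krt35 cells, so the Neg library was highest in both. Its carriers, the cells with 3 or more Krtap3-3 UMIs (17, 6 and 10), had 27.1, 3.97 and 7.93 times the Krt71 of other cells. In them Krt25 was at 16.9, 9.90 and 4.43 times and Krt35 at 1.56, 1.53 and 11.1 times. Tchh was at 35.0, 5.55 and 0.122 times, and Krt10 at 0.171, 0.0449 and 4.33 times. The cells with 3 or more Krtap3-2 UMIs, 9 in Neg and 12 in AA, had 5.37 and 4.03 times the Krt10 of other cells, 6.41 and 3.17 times the Krtdap and 2.41 and 3.27 times the Krt1, which are genes of suprabasal epidermis. Krt15 was at 1.21 and 1.05 times in them, and Lgr5 and Cd34 had no UMI. The pick by outer bulge and root sheath markers (Krt15, Barx2, Cd34 and Lgr5) held 62.8 to 67% of all cells, with 66 of the 74 Krtap3-2 UMIs in Neg, 63 of 100 in AA, about the share of cells, and 22 of 27 in AA+Ab. In AA 17 UMIs were in 3 cells with myeloid markers. In cells with suprabasal keratins (Krt1, Krt10 and Krtdap) it had 2.21 CPM in Neg, 2.01 in AA and 0.700 in AA+Ab, from 23, 20 and 9 UMIs, and AA+Ab was 0.348 times AA (0.139 to 0.798). Krtap17-1 had 23 of its 36 UMIs in Neg, 153 of 189 in AA and 32 of 76 in AA+Ab in the outer bulge and root sheath pick. In AA+Ab, 34 of its UMIs were in the inner root sheath cells. In the outer bulge pick this made 0.309, 1.76 and 0.390 CPM, and AA was 5.70-fold above Neg (3.66 to 9.26). The 24 cells in AA with 3 or more Krtap17-1 UMIs had 905 CPM of Lgr5, a stem cell gene of the lower follicle, which was 17.7 times the level in other AA cells, and the 3 such cells in Neg had 30.4 times. In the 8 such cells of AA+Ab the ratio was 1.62. The other markers of the pick did not go with Lgr5. In the AA cells Krt15 was at 0.593, Barx2 at 0.926 and Cd34 at 2.20 times the level in other cells, and the suprabasal genes Krt10 and Krtdap were at 2.61 and 3.67 times. In the Neg cells Barx2 was at 14.4, Krt15 at 1.83 and Krt10 at 0.0601 times, and in the AA+Ab cells Cd34 was at 34.7 and Krt15 at 0.579 times.

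**Figure D5:**
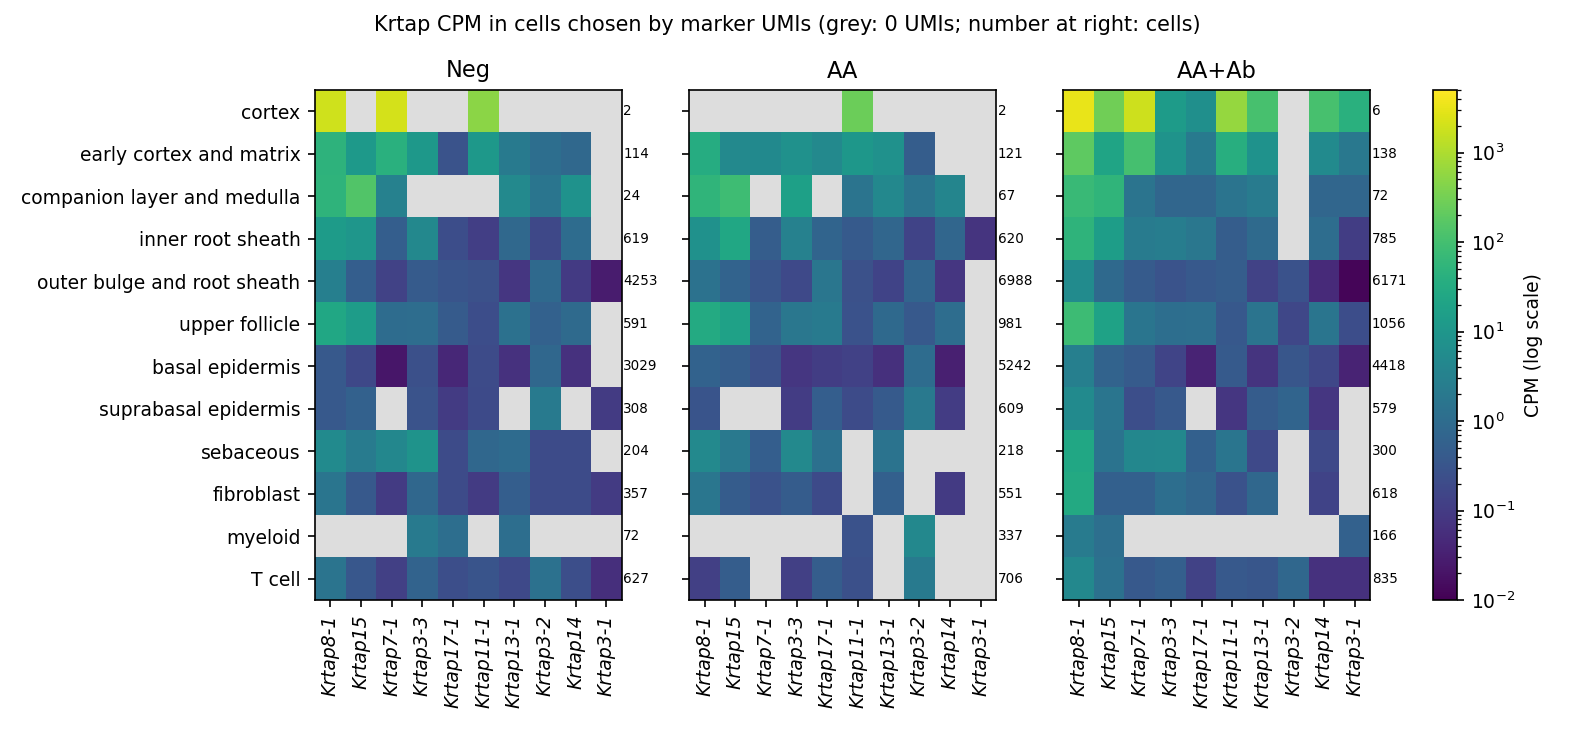
CPM (colour, log scale) of 10 Krtap genes in cells picked by marker UMIs, in the Neg, AA and AA+Ab libraries; grey marks 0 UMIs and the number at the right of each row gives the cells. The cortex rows of Neg and AA+Ab are brightest for Krtap8-1, Krtap7-1 and Krtap11-1 but rest on 2 and 6 cells, and Krtap15 had 139 CPM in the companion and medulla cells of Neg.

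What the Krtap-bearing cells shared was read from a list of 34 genes of the hair shaft programme that the choice of members did not use. Of 32 with a value, 21 were at least 2-fold higher in the cells with 3 or more Krtap UMIs than in the others in all 3 libraries. Gata3 was lower. The share of all genes past the same rule is not given, so the count describes these genes only. Padi3, an enzyme that deiminates trichohyalin, was 24, 39.4 and 36.1 times higher in them. Tchh, which encodes trichohyalin of the inner root sheath and medulla, was 25.3, 39.7 and 22.5 times higher. Krt75 was 19, 31.6 and 21.4 times higher, while Krt6a, listed with it, was lower, at 0.278, 0.268 and 0.0973 times. S100a3, a calcium-binding protein of the hair cuticle, was 17.4, 19.5 and 28.5 times higher, and Hoxc13, a transcription factor of the hair shaft, 7.10, 8.96 and 8.13 times. The basal keratinocyte genes Krt5, Krt14 and Col17a1 were lower in them in all 3 libraries, with Krt14 at 0.271, 0.201 and 0.177 times. Krt32, listed as a cuticle keratin, was lower as well, at 0.466, 0.165 and 0.0932 times. These cells were deeper than the others, as given above, and 8.18%, 11.2% and 7.79% of them were taken as doublets against 5.58%, 8.70% and 8.40% of all cells. The ratios are of the carriers of all members pooled and need not hold for each member. Cells with 3 or more Krtap8-1 UMIs had 7.97, 10.6 and 7.82 times the Hoxc13 of other cells. Those with 3 or more Krtap3-2 UMIs had 0.616 times in Neg and no Hoxc13 UMI in AA.

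Between libraries few genes of the same list were called. In AA over Neg, 0 of 32 genes with enough UMIs were past 2-fold, with a median log2 ratio of -0.11. The background was 3.17% higher and 3.71% lower. In AA+Ab over AA 2 were higher (background 2.58%) and none was lower (background 4.09%). The 2 were Gprc5d (0.177 and 0.680 CPM), a receptor gene of hard keratin-forming cells, and Padi4 (2.26 and 5.54 CPM). Between AA+Ab and Neg, Gprc5d was higher in AA+Ab (background 2.03%) and Krt39 and Selenbp1 were lower (background 3.64%). The median log2 ratio was 0.17. With 32 genes, counts this small lie near these shares and say little about the list. Hoxc13 had 43.0, 39.4 and 54.6 CPM, Tchh 72.5, 66.6 and 90.4 CPM, and Shh, a ligand of the growing matrix, 7.71, 7.81 and 12.3 CPM. The log2 ratio of AA+Ab to AA was 0.47 for Hoxc13, 0.44 for Tchh and 0.66 for Shh, against 2.0 for Krtap8-1 and 2.94 for Krtap7-1.

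Krtap8-1 was also found in cells picked by fibroblast markers, and more so in AA+Ab. In this pick (357, 551 and 618 cells) it had 17 UMIs in 8 cells of Neg, 19 in 11 cells of AA and 420 in 52 cells of AA+Ab, or 1.67, 1.76 and 28.7 CPM. The pick is mostly one by Dcn, a proteoglycan gene, which made up 88.6%, 79.2% and 92.1% of the fibroblast marker UMIs. Of the picked cells, 280, 359 and 522 had no UMI of Col1a1, Col3a1 or Lum, and the 57, 153 and 59 cells with 3 or more of them held 0, 0 and 1 UMI of Krtap8-1. These carriers are thus cells with Dcn and not shown to be fibroblasts. In cells with basal epidermis markers Krtap8-1 had 0.397, 0.609 and 2.93 CPM. With doublets removed, the summed Krtap level was 20.3, 17 and 44.4 CPM. The part of free RNA and of cells that stick together in these values was not tested.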

How the data were processed

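Dorsal skin of 3 groups (Neg, AA and AA+Ab) was digested and captured with a 3′ droplet kit, 1 library per group from the pooled skin of 7 to 8 mice. Per the labels and file headers, the authors ran FastQC 0.11.7 and Cell Ranger 7.2.0 on the mm10 genome and deposited raw UMI counts per gene and called cell. The annotation release and whether intronic reads were counted are not given in the sources used here. Whether reads were counted by strand is not given either.

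Cells with at most 10% mitochondrial UMIs and at least 200 genes were kept, the limits of the study. The study also took out potential doublets with DoubletFinder, whereas no barcode was removed as a doublet in the values given. Removal is an alternative, with 5.58%, 8.7% and 8.4% of kept cells taken by a simulated-doublet score at 0.8% per 1000 barcodes. CPM were summed UMIs over all UMIs of the same cells. With 1 library per group no p-value was computed. Intervals were exact Poisson (CPM), Clopper-Pearson (shares) and exact conditional binomial (ratios) at 95%, cover counting error only, and do not hold the spread between mice or captures. A gene was called at a 2-fold ratio of CPM with at least 20 UMIs over the libraries compared, a count of 0 being set to 3. The members and gene lists were chosen with earlier results of these data known. Members were named if among the 10 with the highest mean CPM, the highest of a KAP family, or, per pair of libraries, among the 5 largest or 5 smallest ratios. The hair keratins and a hair shaft programme list were given by counts, with examples. Other genes and members were named after their values were seen.

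Intervals were computed with scipy 1.17.1, doublet scores with scikit-learn 1.9.0, and tables with pandas 2.3.3 and numpy 2.4.6, in Python 3.11.15. Figures were drawn with matplotlib 3.10.9. The call rule was tested on simulated data for AA over Neg with 19572 genes. It recovered 200 of 200 genes changed 4-fold, and 158 of 19372 unchanged genes passed 2-fold. These rates are not given by UMI count, nor for genes with UMIs concentrated in few cells, as was the case for the Krtap members. How often the rule errs for the members was thus not tested. Gene positions and shared 90-base windows came from GENCODE M21 (GRCm38), and promoters from RefSeq (GRCm38.p6). Alternatives covered the cell filter, doublets, the denominator, thinning to a fixed depth, free RNA, the highest member, the highest cells, shared barcodes, the number of UMIs that counts a cell, and the limits of the call rule and of the marker picks.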

Additional observations from a re-analysis of the deposited data

How the results depend on the processing

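No paired analysis was possible because each group has 1 library. With no replicates, values that left their counting interval are given here. The log2 ratio of summed Krtap CPM of AA over Neg (-0.21) turned to 0.22 with cells thinned to 1000 UMIs, to 0.018 without Krtap8-1, and to 0.34 with the level of cells with 3 different T cell genes taken off. It was -0.12 without the cell of each library with the most Krtap UMIs. AA+Ab over AA (1.34) was 1.44, 0.52 and 0.91 under the first 3 of these. AA+Ab over Neg (1.12) was 1.66, 0.54 and 1.25, with 1.21 without the highest cell and 1.24 with the level of cells with T cell UMIs taken off. The share of cells with 3 or more Krtap UMIs became 0.0954%, 0.0773% and 0.258% in Neg, AA and AA+Ab thinned to 1000 UMIs, and 0.870%, 0.708% and 1.56% thinned to 5000. It was 7.08%, 5.40% and 8.85% counting 1 or more UMIs, and 0.820%, 0.594% and 1.42% counting 10 or more. Thinned to 1000 UMIs, the first of these rests on 6 cells in Neg and 8 in AA, and counting 1 or more there gave 0.842% in Neg and 0.966% in AA. Members past 2-fold in AA over Neg, AA+Ab over AA and AA+Ab over Neg became 18 of 32, 22 of 39 and 17 of 37 with at least 1 UMI (17.2%, 17% and 16.3% of all genes), and 1 of 9, 2 of 9 and 0 of 10 past 4-fold (1.33%, 1.11% and 1.01% of all genes). In AA+Ab over Neg, 8 of 10 were past 1.5-fold (14.2% of all genes). Krtap UMIs per 100 hair keratin UMIs were 12.6 in Neg and 31.3 in AA+Ab at 5% mitochondrial UMIs, and 14.3 in Neg and 17.3 in AA without doublets. They were 4.52, 2.78 and 11 in cells with 5 or more hair keratin UMIs, where 1 Neg cell held 237 of 685 Krtap UMIs. With the limit of a marker pick at 0.5 times, the log2 ratio turned to 0.72 for Krtap14 (AA+Ab over Neg, companion and medulla, from 1 and 5 UMIs), to 0.052 for Krtap15 (AA over Neg, same cells) and to 0.25 for Krtap8-1 (AA over Neg, inner root sheath), the last being 0.87 at 2 times. The causes were not tested. Over all alternatives, 43 summary values stayed within their interval, 35 moved and 3 turned. Of values of single genes and of groups of cells, 136 stayed, 46 moved and 4 turned. Taking off the level of cells with 3 T cell genes, leaving out the highest cells, thinning to 5000 UMIs, and all alternatives for single genes and groups of cells were chosen after seeing the data. Members with a few UMIs are limited by depth.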

Other observations

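A cell of the AA+Ab library with 3425 UMIs in all held 152 Krtap UMIs, of which 42 were of Krtap15, 32 of Krtap7-1, 26 of Krtap8-1 and 8 of Krtap11-1, with 24 UMIs of Krt31. The other cells among the 5 highest of that library held 123 to 282 Krtap UMIs of 12370 to 42303, and Krtap15 had no UMI in them.

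Among coding genes with other names that lie between the members, Gm10229 on chromosome 16 had 1 UMI in Neg, 7 in AA and 5 in AA+Ab, and 2310079G19Rik had 9, 4 and 3. On chromosome 11, Gm11938 had 11, 10 and 5 UMIs and Gm11562 had 14, 5 and 6.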
